A study of Mus musculus with 6 samples.

Results

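A set of 34 genes of cell division was followed in microglia that lack the microRNA miR-137. The set holds 11 genes of DNA replication and 23 genes of mitosis, and its members were the rows of the count table that carry those 34 gene symbols. All 34 were among the 17459 symbols of the table, and all 34 were among the 13490 genes with enough counts to test. The cells were microglia, the macrophages that reside in brain tissue, from 8-week-old male mice of the strain C57BL/6J. The knockout group (cKO) was Mir137loxP/loxP;Tmem119-CreERT2, which is a loxP-flanked Mir137 gene with a tamoxifen-inducible Cre recombinase under the control of the microglial gene Tmem119. The control group (cWT) was Mir137+/+;Tmem119-CreERT2. Both groups thus carried the Cre allele, and both were given tamoxifen on 7 days in a row from 7 weeks of age. RNA was sequenced in 3 libraries per genotype. The labels name 4 mice in the isolation and do not tie them to libraries.

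A dividing cell copies its DNA in S phase and separates the copies in mitosis. The MCM helicase opens the DNA, PCNA clamps the polymerases to it, and ribonucleotide reductase and thymidylate synthase supply the nucleotides. Mitosis is then run by cyclins with their kinases, by the spindle and its motors, and by the anaphase-promoting complex, which ends it by degrading cyclins. Most of these genes are controlled together over the cell cycle. Replication genes are controlled largely through E2F factors, and mitotic genes through the DREAM and MYB-FOXM1 complexes. Adult microglia divide slowly in the resting brain, so such transcripts are usually scarce in them.

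The libraries held 16503817 to 17482042 estimated counts in cWT and 12068698 to 15212806 in cKO. The authors' deposited table lists Mir137 itself with a base mean of 0 over the libraries, and the loss of Mir137 could not be checked here. All 10 markers of microglia were detected, with a sum of 34054 to 36247 CPM (counts scaled to a common library size) in cWT and 32071 to 36344 CPM in cKO. The similar sums hide changes of single markers, since 4 of the 10 were called higher and 5 lower. Sall1 ranged from 772 to 922 CPM in cWT and from 165 to 198 CPM in cKO, Cx3cr1 from 4414 to 5306 and from 1749 to 2381 CPM, and Tmem119 from 402 to 459 and from 828 to 1246 CPM. No marker gene of another cell type that was found in the table was at 0 in all 6 libraries. Markers of several other cells differed between the genotypes, and their values are given after the results on the members. Of all 13490 genes tested, 72.1% were called at an adjusted p under 0.05, with 35.6% higher and 36.5% lower in cKO. Calls here are from edgeR's quasi-likelihood test, adjusted by the Benjamini-Hochberg method over all genes tested. A called member is thus no rarity in this comparison.

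The RNA removed in cKO gives rise to the mature strands below, shown because bases 2 to 8, in capitals, are the seed that pairs with target mRNAs (RefSeq sequences on GRCm38.p6, chr3:118433901-118433923 for the 3p strand and chr3:118433865-118433887 for the 5p strand, plus strand).
mmu-miR-137-3p: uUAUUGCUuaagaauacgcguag
mmu-miR-137-5p: aCGGGUAUucuuggguggauaau
The match to the 3p seed, AGCAATA, stood in the longest annotated 3' UTR of 3 of the 34 members (8.82%), against 1665 of 16208 genes (10.3%). These members were Pcna, Tyms and Birc5. The Birc5 sites stood at bases 2280 and 2711 of a 3' UTR of 2936 bases. That is longer than the whole 947-base transcript used for its length below. The Tyms site stood at base 1902 of a 3' UTR of 3427 bases, likewise longer than the 3163-base transcript used for Tyms. The sites are shown in capitals with 8 bases on either side.
Pcna: gtggagatAGCAATAaaaaaatg
Tyms: agtggctgAGCAATAgagtgatc
Birc5, first site: caattcccAGCAATAcaaaaata
Birc5, second site: tggacttaAGCAATAaggaagtg
A match of letters is a description and does not show that a site is used.

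The division genes were called in both directions, as were all genes tested. Of the 34 members, 10 were higher in cKO (29.4%, against 35.6% of all genes tested) and 11 were lower (32.4%, against 36.5%). The other 13 did not pass the test. The median log2 fold change was 0.01 over the members and -0.02 over all genes tested. Their 61.8% share of calls lay below the 72.1% of all genes, and nothing particular to the members is read from it. Genes that rose were Pcna, Tyms, Hmgb2, Stmn1, Cdk1, Ccnb2, Cdc20, Birc5, Mcm7 and Tubb5. Genes that fell were Mki67, Cenpf, Aurkb, Cenpe, Top2a, Plk1, Kif11, Rrm2, Ccna2, Mcm4 and Mcm2. In 22 members (64.7%) the 3 cKO values did not overlap the 3 cWT values, 10 of them higher and 12 lower, against 74.6% of all genes tested. In bulk RNA, fewer dividing cells and less of a transcript per cell cannot be told apart.

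**Figure D1:**
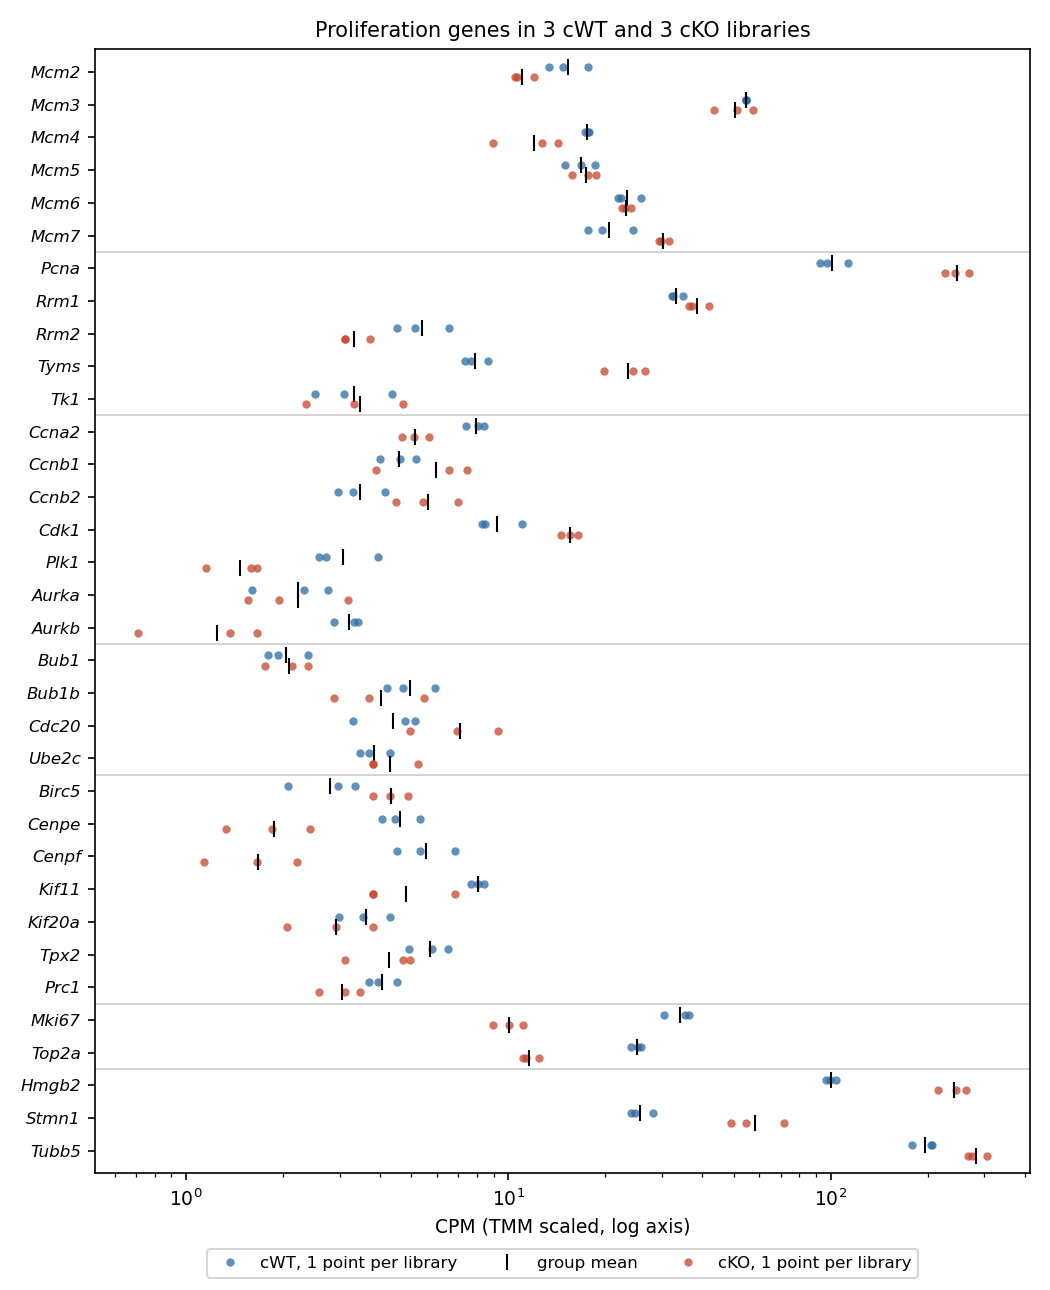
Level of each of the 34 members in CPM on a log axis, with 1 point for each of the 3 cWT (blue) and 3 cKO (red) libraries and a black tick at each group mean; grey lines separate the roles. Pcna, Tyms, Hmgb2 and Stmn1 lie wholly to the right in cKO and Mki67, Top2a, Cenpf, Cenpe and Aurkb wholly to the left.

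Levels of different genes are compared per kilobase of annotated transcript, where Tubb5, Pcna and Hmgb2 led. Tubb5 stood at 74.2 CPM per kilobase in cWT, Pcna at 66.7, Hmgb2 at 38.1, Stmn1 at 24.2 and Mcm3 at 18.03. The kinetochore genes Cenpf and Cenpe were the scarcest, at 0.498 and 0.582 CPM per kilobase, followed by the checkpoint kinase gene Bub1 at 0.595. Mki67, the gene of the Ki-67 proliferation antigen, stood at 3.38 in cWT and 0.996 in cKO. In cKO the clamp gene Pcna passed Tubb5, with 162 CPM per kilobase against 107. These levels, and the sum that follows, are without the length offsets described below. With transcript length offsets the log2 fold change was 0.22 for Pcna and 0.46 for Tubb5, so the crossing depended on the fit. With coding length offsets the values were 0.74 and 0.48. Summed over all 34 members, the level averaged 764 ± 13.9 CPM in cWT and 1140.1 ± 28.2 CPM in cKO (mean ± SD, n = 3). Pcna, Hmgb2, Tubb5 and Stmn1 carried most of that sum, so it says little of the others.

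The fold changes followed the length of the transcripts, as they did across the genome in this series. Spearman's rho between log2 fold change and annotated transcript length was -0.517 over the 34 members and -0.72 over 13398 genes. Against coding length it was -0.659 over the members and -0.653 over 13041 genes. These are descriptions across genes of the same 6 libraries, and genes are not independent replicates. Members called higher had a median transcript length of 2210.5 bases and those called lower 3589 bases, with all members at 2995.5. The coding lengths were further apart, with medians of 906 and 2712 bases. The main results below are therefore given beside 2 further edgeR fits in which a smooth trend of each library with length and GC content was removed, once with transcript length and once with coding length. In the first, rho over all genes was -0.0675 against transcript length. In the second, it was -0.0356 against coding length. Why the libraries differ along length was not tested.

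**Figure D2:**
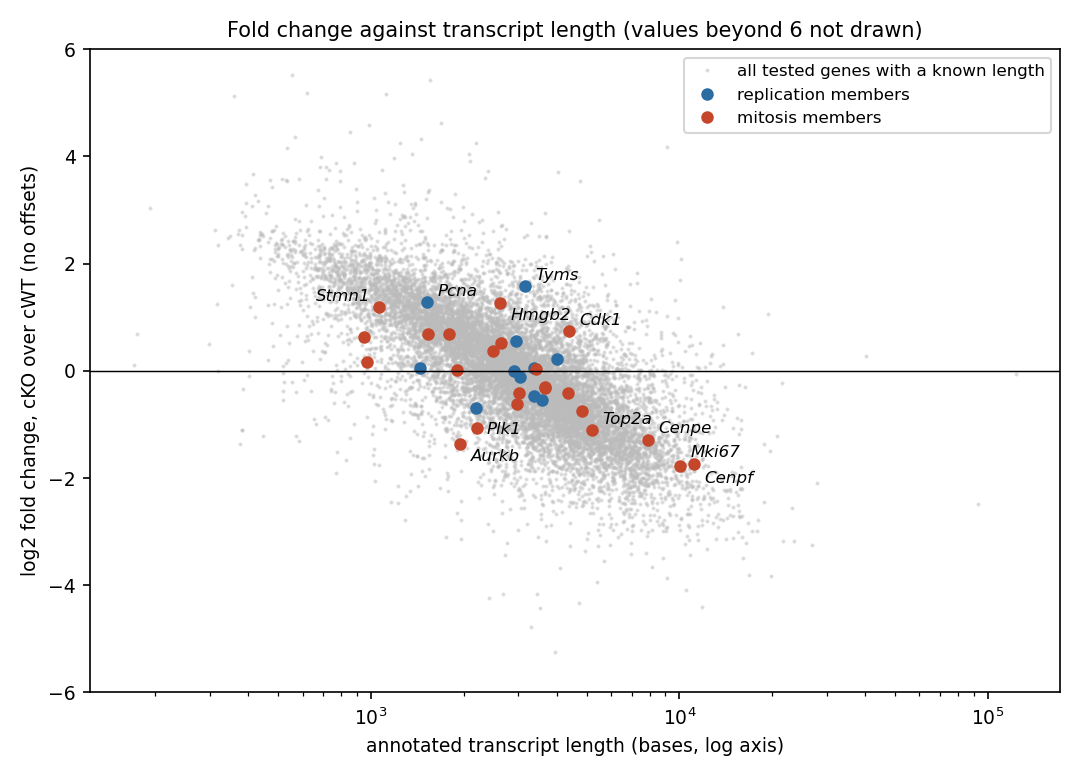
Log2 fold change of cKO over cWT without offsets against annotated transcript length in bases (log axis), for tested genes with a known length (grey; 5 beyond the drawn range are left out), replication members (blue) and mitosis members (red). The cloud slopes down to the right, with Mki67, Cenpf and Cenpe among the long transcripts at its lower end and Stmn1 and Pcna on the left; Tyms, Cdk1, Aurkb and Plk1 lie off the slope.

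With transcript length offsets, 8 members were higher (23.5%, against 29.6% of genes) and 9 were lower (26.5%, against 27.3%). With coding length offsets, 12 were higher (35.3%, against 36.1%) and 5 were lower (14.7%, against 30.6%). In all 3 fits together, 5 members were higher (14.7%, against 17.9% of genes), namely Mcm7, Pcna, Tyms, Tubb5 and Hmgb2. In all 3 fits, 4 were lower (11.8%, against 16.5%), namely Ccna2, Aurkb, Plk1 and Rrm2. Scaling by total counts instead of TMM moved the median of all genes from -0.02 to -0.42 and that of the members to -0.39. Under that scaling 4 members were higher (11.8%, against 24.7% of genes), namely Pcna, Tyms, Stmn1 and Hmgb2. Another 18 were lower (52.9%, against 50.0%), among them all 11 called with TMM.

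**Figure D3:**
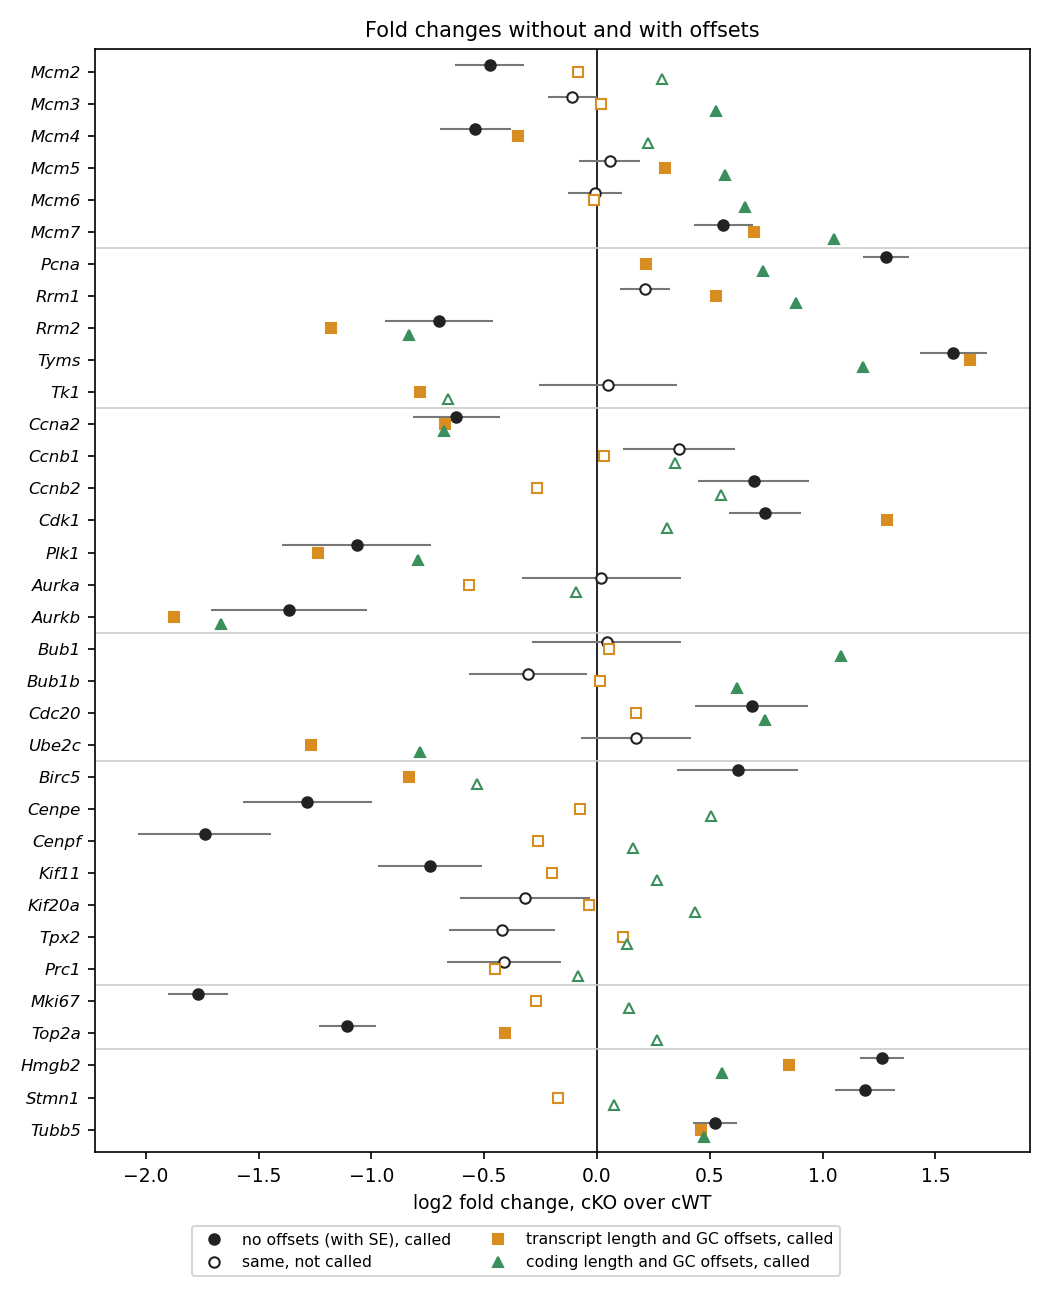
Log2 fold change of cKO over cWT for each member without offsets (circles, with SE), with transcript length and GC offsets (squares) and with coding length and GC offsets (triangles); filled symbols are called at an adjusted p under 0.05. Tyms, Aurkb and Ccna2 stay on their side of 0 and called in all 3 fits, whereas Mki67, Cenpf and Cenpe move from the far left to near or right of the line at 0.

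The replicative helicase is a ring of 6 MCM subunits that is loaded on origins in G1 and unwinds DNA in S phase. Mcm7 rose, Mcm2 and Mcm4 fell, and Mcm3, Mcm5 and Mcm6 did not pass the test, whereas with total count scaling 5 of the 6 were called lower and Mcm7 was not called. Mcm7 (chr5:138164583-138172422, minus strand, GRCm38) read 17.7, 24.3 and 19.5 CPM in the cWT libraries and 29.8, 29.3 and 31.6 CPM in the cKO libraries. All cKO values lay above all cWT values (log2 fold change 0.56, SE 0.13, edgeR adjusted p = 0.000867). Mcm2 read 13.4, 17.7 and 14.8 CPM in cWT and 11.97, 10.4 and 10.6 CPM in cKO, lower without overlap (log2 fold change -0.48, SE 0.15, edgeR adjusted p = 0.00995). Without cWT replicate 2, its highest library, the log2 fold change of Mcm2 was -0.36 and the call was lost. Mcm4 read 17.2, 17.6 and 17.8 CPM in cWT and 8.96, 12.8 and 14.3 CPM in cKO, a tight control group against a spread one (log2 fold change -0.54, SE 0.16, edgeR adjusted p = 0.00543). Mcm3, the most abundant subunit per kilobase, read 54.6, 54.7 and 54.7 CPM in cWT and 51.1, 43.6 and 57.2 CPM in cKO. Mcm5 read 16.8, 18.5 and 14.97 CPM in cWT and 15.8, 17.7 and 18.8 CPM in cKO. Mcm6 read 21.8, 25.9 and 22.3 CPM in cWT and 23.9, 22.6 and 23.1 CPM in cKO. The groups overlapped in these last 3 genes, whose log2 fold changes were -0.11, 0.06 and -0.01.

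Summed over the 6 subunits, the helicase stood at 148 ± 9.28 CPM in cWT and 144.5 ± 9.92 CPM in cKO (mean ± SD, n = 3), a difference smaller than the spread. Mcm7 was the 1 subunit higher in all 3 fits, with log2 fold changes of 0.70 with transcript length offsets and 1.05 with coding length offsets. With transcript length offsets Mcm5 was also called higher at 0.30 and Mcm4 lower at -0.35, and Mcm2, Mcm3 and Mcm6 stood at -0.08, 0.02 and -0.01 with no call. With coding length offsets Mcm3, Mcm5 and Mcm6 were also called higher, at 0.53, 0.57 and 0.65, and Mcm2 and Mcm4 turned to 0.29 and 0.22 without a call.

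Among the sliding clamp and the makers of deoxynucleotides were Tyms and Pcna, the members with the steepest rises without offsets. Pcna and Tyms rose, Rrm2 fell, and Rrm1 and Tk1 did not pass the test. Tyms, thymidylate synthase, makes the thymidine nucleotide of DNA. It lies at chr5:30058202-30073617, minus strand and read 8.62, 7.68 and 7.33 CPM in cWT and 26.6, 19.8 and 24.4 CPM in cKO. Every cKO library lay far above every cWT library (log2 fold change 1.58, SE 0.15, edgeR adjusted p = 2.9e-08). Pcna (chr2:132249162-132253314, minus strand) read 113.5, 92.9 and 97.4 CPM in cWT and 269, 243 and 226 CPM in cKO. The cKO mean was 2.43 times the cWT mean, with no overlap (log2 fold change 1.28, SE 0.10, edgeR adjusted p = 3.41e-09). Both genes stayed called with either kind of offsets, Tyms at 1.65 and 1.18, and Pcna at 0.22 and 0.74. The Pcna value was thus far smaller with transcript length offsets than without them.

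Ribonucleotide reductase joins a large subunit, encoded by Rrm1, to a small one made in S phase, encoded by Rrm2, and the pair did not move together. Rrm2 (chr12:24708241-24714146, plus strand) read 4.52, 5.12 and 6.52 CPM in cWT and 3.12, 3.72 and 3.11 CPM in cKO, lower in every cKO library (log2 fold change -0.70, SE 0.24, edgeR adjusted p = 0.0146). It was lower still with offsets, at -1.18 and -0.84. Without cWT replicate 3 its log2 fold change was -0.55 and the call was lost. Rrm1 read 32.2, 32.4 and 34.9 CPM in cWT and 42.1, 37.1 and 36.4 CPM in cKO. Its groups did not overlap, yet its log2 fold change of 0.21 did not pass the test unless cKO replicate 3 was left out (0.27). With offsets Rrm1 was called higher, at 0.53 and 0.88. Tk1, the thymidine kinase of S phase, ranged from 2.51 to 4.35 CPM in cWT and from 2.35 to 4.69 CPM in cKO, with a log2 fold change of 0.05. Transcript length offsets called it lower at -0.78, and coding length offsets gave -0.66 without a call. As a group these 5 genes summed to 151 ± 10.7 CPM in cWT and 315 ± 26.2 CPM in cKO, with Pcna the largest part in each genotype and Rrm1 the next.

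Cyclin A2 and the B cyclins drive entry into mitosis with the kinase CDK1, and the kinases PLK1, Aurora A and Aurora B build the spindle and attach chromosomes to it. Cdk1 and Ccnb2 rose, Ccna2, Aurkb and Plk1 fell, and Ccnb1 and Aurka did not pass the test. Cdk1 read 11.01, 8.29 and 8.45 CPM in cWT and 16.4, 15.5 and 14.6 CPM in cKO, higher without overlap (log2 fold change 0.74, SE 0.16, edgeR adjusted p = 0.000383). Its offset values were 1.29 by transcript length, called, and 0.31 by coding length, not called. The annotated transcript of Cdk1 has 4375 bases, of which 891 are coding. Ccnb2 read 3.30, 2.97 and 4.15 CPM in cWT and 5.45, 6.996 and 4.48 CPM in cKO (log2 fold change 0.69, SE 0.25, edgeR adjusted p = 0.0178). Its call was lost without cWT replicate 1 (0.65), cWT replicate 2 (0.59) or cKO replicate 2 (0.53), and with both kinds of offsets (-0.26 and 0.55). Ccnb1 read 5.16, 4.61 and 3.996 CPM in cWT and 6.52, 7.44 and 3.87 CPM in cKO, where 1 cKO library lay below all of cWT. Its log2 fold change was 0.36, and 0.62 with a call when that library, cKO replicate 3, was left out. Offsets gave Ccnb1 0.03 by transcript length and 0.35 by coding length, with no call.

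Among the genes that fell, Ccna2 and Aurkb were called lower in every fit that tested them; a filter at 5 CPM set Aurkb aside. Ccna2 (chr3:36564865-36572150, minus strand) read 8.03, 8.39 and 7.38 CPM in cWT and 4.67, 5.67 and 5.09 CPM in cKO (log2 fold change -0.62, SE 0.19, edgeR adjusted p = 0.00752). With offsets it stood at -0.67 and -0.68, close to the value without them. Aurkb, the catalytic subunit of the chromosomal passenger complex, lies at chr11:69045647-69051664, plus strand. It read 3.40, 3.33 and 2.88 CPM in cWT and 1.66, 0.709 and 1.37 CPM in cKO, so every cKO library was under every cWT library (log2 fold change -1.36, SE 0.35, edgeR adjusted p = 0.00179). Offsets moved Aurkb further down, to -1.87 and -1.67. Plk1 (chr7:122159439-122169873, plus strand) read 2.71, 3.94 and 2.58 CPM in cWT and 1.66, 1.15 and 1.59 CPM in cKO (log2 fold change -1.07, SE 0.33, edgeR adjusted p = 0.00787). It stayed called with offsets, at -1.24 and -0.79, but not without cWT replicate 2 (-0.85). Aurka ranged from 1.60 to 2.76 CPM in cWT and from 1.56 to 3.19 CPM in cKO, with a log2 fold change of 0.02. Its offset values of -0.56 and -0.09 were not called either.

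The spindle checkpoint kinase BUB1 and its relative BUBR1 (Bub1b) hold the anaphase-promoting complex until chromosomes are attached. CDC20 activates that complex and UBE2C is its ubiquitin-conjugating enzyme. Only Cdc20 was called among these 4 genes without offsets. It read 4.79, 5.12 and 3.29 CPM in cWT and 4.96, 9.30 and 6.91 CPM in cKO, with the lowest cKO library inside the cWT range (log2 fold change 0.69, SE 0.25, edgeR adjusted p = 0.0203). The call was lost without cWT replicate 3 (0.51) or cKO replicate 2 (0.46), and with transcript length offsets (0.17), and kept with coding length offsets (0.75). Ube2c ranged from 3.46 to 4.30 CPM in cWT and from 3.80 to 5.24 CPM in cKO, with a log2 fold change of 0.17. Its transcript is short, and both offset fits called it lower, at -1.27 and -0.78. Bub1 ranged from 1.79 to 2.39 CPM in cWT and from 1.75 to 2.39 CPM in cKO. Bub1b ranged from 4.20 to 5.94 CPM in cWT and from 2.89 to 5.49 CPM in cKO. Their log2 fold changes of 0.04 and -0.30 did not pass the test, whereas coding length offsets called both higher, at 1.08 and 0.62.

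Of the 7 kinetochore, spindle and cytokinesis genes, 3 were lower and 1 was higher without offsets, 1 was lower with transcript length offsets, and 0 were called by edgeR with coding length offsets, also at an unadjusted p under 0.05. With total count scaling 6 were lower. Their sum was 34.4 ± 2.13 CPM in cWT and 22.9 ± 2.996 CPM in cKO, a difference carried by Cenpf, Cenpe and Kif11. Cenpf, Cenpe and Kif11 fell, Birc5 rose, and Kif20a, Tpx2 and Prc1 did not pass the test. Cenpf, a large protein of the outer kinetochore, read 6.81, 4.50 and 5.31 CPM in cWT and 1.66, 2.21 and 1.14 CPM in cKO (log2 fold change -1.74, SE 0.30, edgeR adjusted p = 3.88e-05). Cenpe, the kinetochore motor that carries chromosomes to the spindle equator, read 5.32, 4.45 and 4.05 CPM in cWT and 1.85, 1.33 and 2.43 CPM in cKO (log2 fold change -1.28, SE 0.29, edgeR adjusted p = 0.000594). Kif11, the motor that pushes spindle poles apart, read 8.03, 8.39 and 7.64 CPM in cWT and 3.80, 6.82 and 3.80 CPM in cKO (log2 fold change -0.74, SE 0.23, edgeR adjusted p = 0.00779). None of the 3 overlapped between genotypes, and none was called with offsets. Transcript length offsets gave -0.26, -0.08 and -0.20 for Cenpf, Cenpe and Kif11, and coding length offsets gave 0.16, 0.51 and 0.26.

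Birc5, survivin, is the partner of Aurora B in the passenger complex and went the other way from Aurkb without offsets. It read 3.35, 2.97 and 2.07 CPM in cWT and 4.28, 4.87 and 3.80 CPM in cKO (log2 fold change 0.62, SE 0.27, edgeR adjusted p = 0.0449). The direction turned with offsets, to -0.83 by transcript length, which was called lower, and -0.53 by coding length, which was not called. Its call without offsets was also lost when cWT replicate 2 (0.66), cWT replicate 3 (0.44), cKO replicate 1 (0.62) or cKO replicate 2 (0.54) was left out, with DESeq2 (0.63) and with no filter on low counts (0.58). The mitotic kinesin gene Kif20a ranged from 2.98 to 4.30 CPM in cWT and from 2.05 to 3.80 CPM in cKO. Tpx2, an activator of Aurora A, ranged from 4.91 to 6.47 CPM in cWT and from 3.12 to 4.94 CPM in cKO. Prc1, which bundles microtubules of the central spindle, ranged from 3.69 to 4.52 CPM in cWT and from 2.58 to 3.45 CPM in cKO. Prc1 did not overlap between genotypes, and the log2 fold changes of the 3 were -0.32, -0.42 and -0.41. With transcript length offsets Kif20a, Tpx2 and Prc1 stood at -0.03, 0.12 and -0.45, and with coding length offsets at 0.44, 0.13 and -0.08, none of them called. Total count scaling called all 3 lower.

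Ki-67 coats mitotic chromosomes and topoisomerase II alpha untangles them, and both genes fell steeply. Mki67 (chr7:135689784-135716361, minus strand) read 36.3, 35.2 and 30.5 CPM in cWT and 11.1, 10.01 and 8.96 CPM in cKO. The cKO mean was 0.294 times the cWT mean (log2 fold change -1.77, SE 0.13, edgeR adjusted p = 1.55e-09). Top2a (chr11:98992943-99024189, minus strand) read 25.2, 25.8 and 24.1 CPM in cWT and 11.1, 12.4 and 11.3 CPM in cKO (log2 fold change -1.11, SE 0.13, edgeR adjusted p = 3.22e-07). The libraries of each genotype lay close together in both genes and far from the other genotype. Mki67 has the second longest annotated transcript of the members, at 10061 bases. Its log2 fold change was -0.27 with transcript length offsets and 0.14 with coding length offsets, neither of them called. Top2a was called lower at -0.41 with transcript length offsets and stood at 0.26, not called, with coding length offsets. The fall of the usual proliferation marker thus depended on whether length was modelled.

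Hmgb2, Stmn1 and Tubb5, which serve chromatin and microtubules, all rose, with a sum of 322 ± 19.2 CPM in cWT and 582 ± 10.9 CPM in cKO. Hmgb2 bends DNA and is abundant in cycling cells. It lies at chr8:57511907-57515999, plus strand and read 96.9, 99.8 and 104 CPM in cWT and 263.5, 245 and 214.5 CPM in cKO (log2 fold change 1.26, SE 0.10, edgeR adjusted p = 2.06e-09). With offsets it remained called at 0.85 and 0.56. Stmn1, stathmin, which destabilises microtubules, read 24.8, 28 and 24.1 CPM in cWT and 54.6, 71.5 and 49.04 CPM in cKO (log2 fold change 1.19, SE 0.13, edgeR adjusted p = 2.35e-07). Its transcript has 1060 bases, and with offsets it stood at -0.17 and 0.08 with no call. Tubb5, a beta-tubulin, read 178.5, 206 and 205 CPM in cWT and 266, 275 and 306 CPM in cKO (log2 fold change 0.52, SE 0.10, edgeR adjusted p = 0.000102). Offsets left Tubb5 called at 0.46 and 0.48, while total count scaling did not call it. Tubulin and HMGB genes have near-identical relatives, so the split of reads among them is uncertain.

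The start regions of members that moved apart are shown because genes that cycle together are known to share promoter elements. Windows of 300 bases, from 250 before to 50 after the annotated start, were read from RefSeq on GRCm38.p6, where 28 of the 34 members had an entry. They were searched on both strands for the CCAAT box, for TTTGAA, which is the core of the CHR element of mitotic genes, and for the E2F sites TTTCCCGC, TTTGGCGC, TTTCGCGC and TTTGCCGC. The steepest rise and fall are shown among replication genes (Tyms and Rrm2) and among mitosis genes (Hmgb2 and Mki67), 5' to 3' along the gene with matches in capitals.
Tyms, chr5:30073576-30073875, minus strand: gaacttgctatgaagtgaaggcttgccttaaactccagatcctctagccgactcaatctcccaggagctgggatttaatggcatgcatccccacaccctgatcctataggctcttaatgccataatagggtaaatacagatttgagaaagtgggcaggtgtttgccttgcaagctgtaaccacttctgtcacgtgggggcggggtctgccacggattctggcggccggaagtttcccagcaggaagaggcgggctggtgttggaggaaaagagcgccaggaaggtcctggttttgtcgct
Rrm2, chr12:24708004-24708303, plus strand: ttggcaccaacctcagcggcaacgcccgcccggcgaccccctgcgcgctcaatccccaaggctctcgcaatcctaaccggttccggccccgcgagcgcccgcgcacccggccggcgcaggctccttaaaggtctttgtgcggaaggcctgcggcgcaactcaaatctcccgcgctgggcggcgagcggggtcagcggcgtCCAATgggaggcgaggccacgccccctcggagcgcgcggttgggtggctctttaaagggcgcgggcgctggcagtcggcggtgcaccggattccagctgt
Hmgb2, chr8:57511593-57511892, plus strand: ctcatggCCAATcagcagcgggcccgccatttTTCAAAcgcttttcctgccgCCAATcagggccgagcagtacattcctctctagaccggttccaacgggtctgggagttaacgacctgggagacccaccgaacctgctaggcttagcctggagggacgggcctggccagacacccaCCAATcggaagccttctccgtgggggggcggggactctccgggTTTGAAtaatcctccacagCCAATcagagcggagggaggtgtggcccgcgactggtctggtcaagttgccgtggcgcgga
Mki67, chr7:135716330-135716629, minus strand: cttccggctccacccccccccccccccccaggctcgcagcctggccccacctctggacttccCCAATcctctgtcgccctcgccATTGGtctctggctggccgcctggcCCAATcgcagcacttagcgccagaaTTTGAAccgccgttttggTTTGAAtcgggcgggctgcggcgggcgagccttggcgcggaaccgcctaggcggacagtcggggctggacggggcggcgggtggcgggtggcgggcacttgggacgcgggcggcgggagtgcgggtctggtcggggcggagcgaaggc
Hmgb2 and Mki67, which moved in opposite directions without offsets, each held 2 CHR elements, with 4 and 3 CCAAT boxes. Rrm2 held 1 CCAAT box and Tyms none of the motifs.

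The CCAAT box stood in the windows of 25 of the 28 members (89.3%), against 41.1% of 27025 genes. CHR elements stood in 14 of 28 (50%), against 20.2%, and these were 13 of 18 mitosis members (72.2%) and 1 of 10 replication members. E2F sites stood in 5 of 28 (17.9%), against 2.6%, and these were 4 of 10 replication members and 1 of 18 mitosis members. The replication genes with an E2F site were Mcm3, Mcm5, Mcm6 and Mcm7, and the mitosis gene was Cdk1. Members with a CHR element included genes that rose (Hmgb2, Cdk1, Ccnb2 and Cdc20) and genes that fell (Mki67, Top2a, Plk1, Cenpf and Kif11). These are matches of letters, and none was tested for use.

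Other genes of division and its control were read from 10 lists of textbook pathways. Over all genes tested, 35.6% were higher and 36.5% lower without offsets. The shares were 29.6% and 27.3% with transcript length offsets, and 36.1% and 30.6% with coding length offsets. The list counts below are to be read beside these shares. With total count scaling the shares over all genes were 24.7% higher and 50.0% lower, and the calls in the lists moved the same way. The pairs of counts that follow are of genes called higher and lower. The split went from 9 and 5 to 6 and 15 in origin licensing, from 20 and 8 to 17 and 12 in the polymerase list, and from 14 and 6 to 7 and 10 in the kinetochore list. It went from 12 and 6 to 10 and 9 in the anaphase-promoting list, from 10 and 3 to 6 and 6 in the CDK inhibitors, and from 4 and 7 to 0 and 8 in growth factor signalling. In the spindle motor list it went from 0 and 10 to 0 and 16. Of 26 tested genes of origin licensing and firing, 9 were higher and 5 lower, with a median log2 fold change of -0.17. With transcript length offsets 3 were higher and 3 lower, and with coding length offsets 12 and 1. Gmnn, geminin, which blocks relicensing, went from 4.05 ± 0.440 to 11.8 ± 2.98 CPM (log2 fold change 1.53, SE 0.21, edgeR adjusted p = 3.39e-06), and stood at 0.20 and 0.71 with transcript and coding length offsets. Orc4, of the origin recognition complex, was higher in all 3 fits at 0.58, 0.72 and 0.64, and was not called with total count scaling (0.18). Clspn, the checkpoint adaptor claspin, stood at -1.37 without offsets and was not called with either kind. Orc3 fell by 0.36 on the log2 scale without offsets. It was called lower at -0.84 with transcript length offsets and higher at 0.20 with coding length offsets. The Orc3 call of the fit without offsets was lost when cKO replicate 2 was left out (-0.30).

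Polymerase, clamp loader and nucleotide genes were mostly higher, with 20 of 34 called higher and 8 lower and a median of 0.76. With offsets 13 were higher and 4 lower by transcript length, and 19 and 3 by coding length. Rpa3, the smallest subunit of the single-strand binding protein, went from 7.34 ± 0.709 to 32.01 ± 3.48 CPM (log2 fold change 2.12, SE 0.14, edgeR adjusted p = 2.28e-10), with offset values of 0.13 and 0.95. Slbp, which binds histone mRNA, was higher in all 3 fits (0.93, 0.26 and 0.42). Pole, the leading-strand polymerase, fell from 2.24 ± 0.100 to 0.390 ± 0.174 CPM (log2 fold change -2.46, SE 0.45, edgeR adjusted p = 8.3e-05). It stood at -1.21, called, and -0.84, not called, with offsets. Samhd1, which degrades deoxynucleotides, fell by 0.51 on the log2 scale without offsets and was not called with them.

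Among 37 kinetochore and spindle checkpoint genes, 14 were higher and 6 lower without offsets (median 0.32), 7 and 6 with transcript length offsets, and 11 and 3 with coding length offsets. DESeq2 called 10 higher and 4 lower. Bub3, the partner of BUB1, went from 68.7 ± 1.30 to 145.5 ± 7.51 CPM (log2 fold change 1.08, SE 0.09, edgeR adjusted p = 5.68e-09) and stayed called at 0.72 and 0.73. Zwint, a kinetochore scaffold, was likewise higher in all 3 fits (0.85, 0.57 and 0.29). Casc5, an older symbol of the kinetochore gene Knl1, stood at -2.15 and Cenpw at 1.64 without offsets, both at low counts. With offsets Casc5 stood at -1.12, called, and -0.47, not called, and Cenpw at 0.44 and 0.40 without a call. Of 26 spindle motor and cytokinesis genes, 0 were higher and 10 lower by edgeR and by DESeq2 (median -0.49), with the same counts at an unadjusted p under 0.05. The counts were 1 and 4 with transcript length offsets and 7 and 1 with coding length offsets. Numa1, which focuses spindle poles, fell from 296 ± 16.6 to 81.98 ± 6.76 CPM (log2 fold change -1.85, SE 0.10, edgeR adjusted p = 2.18e-11) and was still lower at -0.39 and -0.29. The microtubule polymerase gene Ckap5 was called lower at -1.37 without offsets and at -0.33 with transcript length offsets. With coding length offsets it was called higher at 0.25. Kif14 and Cit, of cytokinesis, stood at -2.78 and -2.51 and were called in neither offset fit.

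The condensin and cohesin list fell most widely without offsets, with 16 of 21 genes lower and 2 higher (median -0.80). It holds the longest transcripts of the 10 lists, with a median of 4851 bases. With transcript length offsets 5 were lower and 4 higher, and with coding length offsets 2 were lower and 12 higher. Pds5a, a cohesin regulator, fell from 71.2 ± 3.68 to 21.4 ± 1.85 CPM (log2 fold change -1.74, SE 0.11, edgeR adjusted p = 1.31e-10) and kept its call at -0.43 and -0.49. Ncapg2, of condensin II, did so at -1.73, -1.17 and -0.66. The cohesin genes Stag2 and Rad21 fell by 0.30 and 0.26 on the log2 scale without offsets and turned to 0.91 and 0.14 with coding length offsets. Without offsets the call of Stag2 was lost with DESeq2 (-0.29), RLE scaling (-0.28) and the filter at 5 CPM (-0.28), and without cWT replicate 1 (-0.20), cWT replicate 3 (-0.34), cKO replicate 2 (-0.27) or cKO replicate 3 (-0.15). That of Rad21 was lost without cWT replicate 3 (-0.26) or cKO replicate 3 (-0.18).

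The 26 genes of the anaphase-promoting complex and of mitotic entry split 12 higher to 6 lower (median 0.33), 11 to 7 with transcript length offsets and 10 to 6 with coding length offsets. Anapc16, a small subunit of the complex, rose in all 3 fits. It went from 30.1 ± 0.948 to 154 ± 4.26 CPM (log2 fold change 2.36, SE 0.09, edgeR adjusted p = 2.08e-12), with offset values of 1.69 and 1.03. Anapc13, another small subunit, stood at 2.07, 0.61 and 0.48. The scaffold subunit Anapc1 fell by 1.31 on the log2 scale without offsets and stood at 0.09 and 0.22 with them. Ensa, an inhibitor of a phosphatase that opposes CDK1, was called higher at 0.54 without offsets and at 0.87 with transcript length offsets. With coding length offsets it was called lower at -0.72. Total count scaling gave 0.15 for Ensa, without a call.

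Regulators of the G1 phase had more falls than rises in each of the 3 fits. Over all genes tested, 36.5% were lower and 35.6% higher without offsets. The shares were 27.3% and 29.6% with transcript length offsets, and 30.6% and 36.1% with coding length offsets. Of 33 genes of G1 cyclins, CDKs, Rb, E2F and DREAM, 8 were higher and 15 lower (median -0.24), 5 and 11 with transcript length offsets and 7 and 15 with coding length offsets. Ccnd1, cyclin D1, which starts the cycle with CDK4 and CDK6, went from 177 ± 11.5 to 76.8 ± 13.02 CPM (log2 fold change -1.21, SE 0.11, edgeR adjusted p = 2.51e-08). It stood at -0.84 and -1.67 with offsets, called in both. The repressors of E2F targets E2f7 and E2f8 fell as well. E2f8 went from 3.97 ± 0.603 to 0.548 ± 0.384 CPM (log2 fold change -2.90, SE 0.41, edgeR adjusted p = 5.39e-06), with offset values of -2.58 and -2.20. E2f7, under 1 CPM in both groups, stood at -2.86, -1.99 and -2.13. Rbbp4, a histone chaperone of the DREAM complex, rose in all 3 fits, at 0.91, 1.36 and 0.89.

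Among 17 CDK inhibitors and antiproliferative genes, 10 were higher and 3 lower (median 0.44), 9 and 6 with transcript length offsets, and 3 and 8 with coding length offsets. Cdkn2a, which encodes p16 and p19 inhibitors, went from 0.173 ± 0.108 to 1.88 ± 0.575 CPM (log2 fold change 3.39, SE 0.57, edgeR adjusted p = 3.26e-05), a rise from near the limit of detection. Cdkn2d, a further inhibitor of CDK4 and CDK6, went from 17.8 ± 1.71 to 50.6 ± 2.24 CPM (log2 fold change 1.51, SE 0.11, edgeR adjusted p = 1.47e-09). Both stayed called with offsets, Cdkn2a at 2.23 and 2.40, and Cdkn2d at 0.67 and 0.49. The abundant antiproliferative gene Btg2 fell in all 3 fits (-0.51, -0.58 and -1.57). Ccng2, an atypical cyclin of resting cells, was 0.41 and 0.28, called, and 0.15 with coding length offsets, not called. Its value was 0.0131 with total count scaling, without a call.

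Growth factor signalling, on which microglial survival and division depend, had 4 of 12 genes higher and 7 lower (median -0.63), 2 and 4 with transcript length offsets and 2 and 8 with coding length offsets. Csf1r, the receptor of the main microglial growth factor, went from 8953 ± 726 to 5316.5 ± 567 CPM (log2 fold change -0.75, SE 0.12, edgeR adjusted p = 2.1e-05). With offsets it stood at 0.09 and 0.10, not called. Tgfbr2 fell in all 3 fits (-1.34, -0.95 and -1.13), as did Csf2rb (-1.24, -0.35 and -0.49). Tgfbr1 was -0.64 without offsets, 0.12 with transcript length offsets and -0.47 with coding length offsets. Relatives of Tubb5, Stmn1 and Hmgb2 rose broadly, with 13 of 15 tested higher and 0 lower by edgeR and by DESeq2 (median 0.82), and the same at an unadjusted p under 0.05. With transcript length offsets 8 were higher and 0 lower by edgeR (8 and 1 unadjusted), and with coding length offsets 11 and 1. Tuba1c went from 53.6 ± 0.825 to 239.5 ± 53.9 CPM (log2 fold change 2.16, SE 0.13, edgeR adjusted p = 8.9e-11), with 1.82 and 2.11 with offsets. Hmgb1 followed at 1.17, 0.91 and 0.49, Tuba1b at 0.72, 0.14 and 0.68, and the scarce Stmn3 at 3.16, 2.11 and 2.20.

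**Figure D4:**
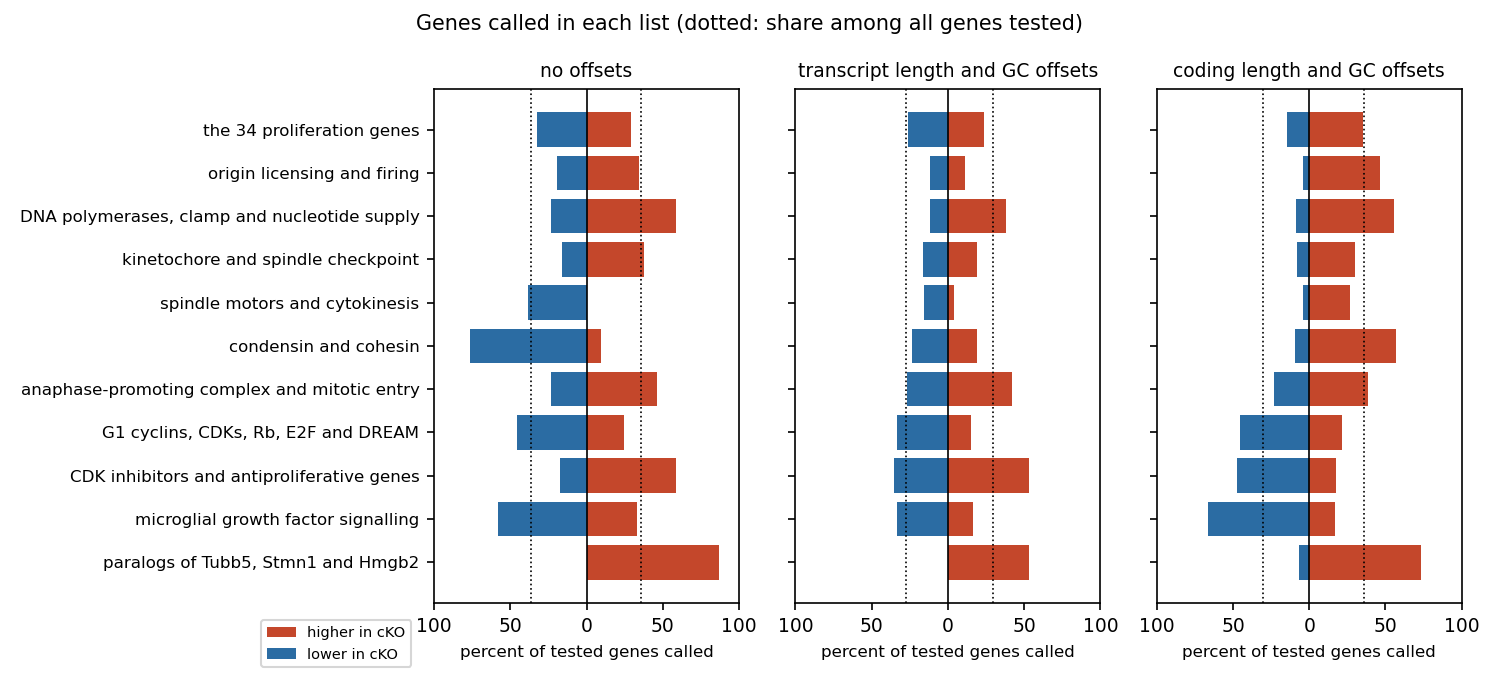
Percent of tested genes called higher (red, to the right) and lower (blue, to the left) in cKO for the 34 members and the 10 lists, without offsets and with each kind of offsets; dotted lines are the shares among all genes tested. The 34 members sit near or inside the dotted lines without offsets, and the condensin and cohesin bar changes sides between the left and the right panel.

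Some markers of other cells that can divide or carry such transcripts differed between the genotypes. These values and calls are without length offsets, and how far they follow transcript length was not tested. Of all genes tested, 35.6% were higher and 36.5% lower in cKO without offsets. The marker calls in this and the next paragraph are to be read beside these shares. Neutrophils and their bone marrow precursors had a marker sum of 4278 to 4812 CPM in cWT and 11056 to 15475 CPM in cKO, with 4 of 9 tested genes higher and 2 lower. S100a8 ranged from 992 to 1247 CPM in cWT and from 3769 to 5723 CPM in cKO. With S100a9 (1361 to 1683 and 5017 to 7560 CPM) it carried most of that rise. Camp was also at higher levels in cKO, at 334.5 to 385.7 and 556.4 to 795.7 CPM. Ngp overlapped (919.6 to 942.3 and 746.4 to 1006.6 CPM), and Ltf fell (469.8 to 583 and 263 to 392.6 CPM). Mpo and Elane, which mark the dividing precursors, ranged from 40.2 to 68.7 CPM and from 31.4 to 38.1 CPM in cWT. In cKO they ranged from 12.9 to 34.5 CPM and from 20.04 to 33.7 CPM. Of 2 other granule genes of such precursors, Ctsg ranged from 7.69 to 11.3 CPM in cWT and from 15.5 to 33.8 CPM in cKO, and Prtn3 from 24.3 to 29.8 CPM and from 25.2 to 41.3 CPM. Oligodendrocyte precursor markers summed to 35.2 to 44.2 CPM in cWT and 14.9 to 24.4 CPM in cKO, where 2 of 7 tested were lower. Cspg4, at 21.2 to 29.6 CPM in cWT and 3.80 to 5.31 CPM in cKO, carried that difference, and Pdgfra overlapped between the genotypes. Neural progenitor and neuroblast markers summed to 45.4 to 50.3 CPM in cWT and 65.8 to 67.8 CPM in cKO (3 of 7 higher, 3 lower). Cd24a, at 38.6 to 43.0 CPM in cWT and 57.2 to 61.3 CPM in cKO, made up most of that sum, and the neuroblast gene Dcx ranged from 0.71 to 1.12 CPM in cWT and from 0.15 to 0.19 CPM in cKO.

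Lymphocyte markers summed to 33.7 to 34.3 CPM in cWT and 52.8 to 62.3 CPM in cKO (1 of 5 higher, 1 lower). Cd79b, at 16.3 to 18.2 CPM in cWT and 36.04 to 46.1 CPM in cKO, carried that rise. Monocyte markers summed to 889 to 1007 CPM and 1124.5 to 1432.5 CPM (4 of 6 higher, 2 lower). Choroid plexus and ependymal markers summed to 2140.3 to 2411 CPM in cWT and 10408 to 14047 CPM in cKO, with all 6 higher. Endothelial sums were 1074.5 to 1289 CPM in cWT and 1435 to 1721 CPM in cKO, yet 5 of 7 genes were lower and 2 higher. Cldn5 and Ly6c1 were at higher levels in cKO, whereas Flt1 ranged from 239 to 289 CPM in cWT and from 52.6 to 65.5 CPM in cKO. Oligodendrocyte sums were 273.5 to 283 and 291 to 429 CPM (4 of 6 higher, 1 lower), and fibroblast sums 19.3 to 24.2 and 14.8 to 17.2 CPM (2 of 5 higher, 3 lower). The sums of neuron, astrocyte, erythroid cell and border-associated macrophage markers overlapped between the genotypes, though single genes differed. Of tested genes, 1 of 2 neuron and 1 of 6 astrocyte markers were higher, and 1 of 5 erythroid markers was lower. Of 6 border-associated macrophage markers, 4 were higher and 1 lower. Gfap ranged from 5.67 to 8.86 CPM in cWT and from 21.1 to 55.1 CPM in cKO. The erythroid gene Hbb-bs read 23.94, 23.45 and 6.22 CPM in cWT and 0 in each cKO library, and why was not tested. How far these cells share in the member values was not tested.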

How the data were processed

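RNA of 3 cWT and 3 cKO libraries, grouped by their titles, was sequenced. The authors deposited unscaled estimated counts, 1 row per gene symbol. The submitters' processing notes name STAR 2.7.9a, RSEM, DESeq2, GRCm38 and mm10. The annotation and the strand were not given in the sources used here. Without strand, reads of a gene and its antisense partner cannot be told apart. The authors' deposited comparison gives a base mean (a signal), a log2 fold change and its standard error, a Wald statistic (a score) and p-values, per the file headers. At an adjusted p under 0.05 it has 9 members higher and 11 lower, and its log2 fold changes differ from those here by at most 0.01233. Birc5 alone was called here and not there.

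Between 5.5% and 5.85% of the count values per library were not whole, and counts were rounded. The filter filterByExpr (minimum count 10) set aside 3969 genes, and the rest were tested with edgeR 4.0.16 in R 4.3.3 (quasi-likelihood, robust, TMM, genotype as the only term), two-sided across all genes. CPM values are TMM scaled. No library duplicated another (chi-square per degree of freedom 3.84 to 19.3). Since the labels do not tie mice to libraries, p-values measure only the spread between these libraries, which may be technical.

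Lengths and GC content came from GENCODE transcripts on GRCm38, matched for 17271 symbols, 16753 directly and 518 by a synonym. Offsets were natural splines with 5 degrees of freedom each for log length and GC content, fitted per library. The annotated transcript need not be the one expressed, so coding length was added as an alternative after the data were seen. The fits and the test were tested on simulated data. Promoters and microRNAs are from RefSeq on GRCm38.p6.

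The alternatives were DESeq2 1.42.0, other scalings and filters, each library left out, a replicate block and the offsets. Values per library are given for members that were called or averaged at least 5 CPM. From each list, the called genes with the largest changes and the highest levels are named, up to 4. The members and lists were chosen with earlier results of these data known.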

Additional observations from a re-analysis of the deposited data

How the results depend on the processing

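DESeq2 (9 members higher, 11 lower), RLE scaling (10 and 11) and no filter on low counts (9 and 11) gave nearly the same counts of members. Among all genes, DESeq2 called 4772 higher and 4693 lower of 16975, and RLE scaling 4882 and 4840 of 13490. With no filter the counts were 4815 and 5149 of 16975. Keeping genes with 5 CPM or more in 3 libraries left 22 members to test. It called 8 and 8 of them, against 4220 and 4317 of 10726 genes. Total count scaling called 4 higher and 18 lower, with a median log2 fold change of -0.39 over the members, and turned Mcm5 to -0.34. The median was -0.038 with no filter. Leaving out 1 library at a time gave 9116 to 9717 called genes, 7 to 12 members higher, 9 to 11 lower and a median from -0.0893 to 0.016. The call changed without 1 library in 8 members, and 7 of those called higher and 8 of those called lower kept it in each such fit.

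Whether replicate numbers pair the libraries was not settled. Deviations of same-numbered libraries correlated weakly, at 0.083, 0.0278 and 0.0776, yet each library correlated best with its own number. Pairs of unlike number ranged from -0.0829 to 0.00606. With a replicate block, 9911 genes, 10 members higher and 11 lower were called, with no member's call changed. With transcript length and GC offsets plus the replicate block, 7694 genes, 8 members higher and 9 lower were called.

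Transcript length offsets gave a member median of -0.0802, and -0.0894 with the block. Among genes called with or without offsets, they turned the direction of Ccnb2 (-0.26, with the block -0.27), Birc5 (-0.83, -0.82), Tk1 (-0.78, -0.79), Ube2c (-1.27, -1.28) and Stmn1 (-0.17, -0.19). Outside the members they turned Stag2 (0.43, 0.43), Rad21 (0.0307, 0.0306), Anapc1 (0.0937, 0.0928), Csf1r (0.0939, 0.0919) and Tgfbr1 (0.12, 0.12). Coding length offsets called 5 members lower and gave a median of 0.30. They turned Mki67 (0.14), Top2a (0.26), Birc5 (-0.53), Bub1b (0.62), Cenpf (0.16), Cenpe (0.51), Kif11 (0.26), Mcm2 (0.29), Mcm3 (0.53), Mcm4 (0.22), Mcm6 (0.65) and Ube2c (-0.78). Outside the members they turned Orc3 (0.20), Ckap5 (0.25), Stag2 (0.91), Rad21 (0.14), Ensa (-0.72), Anapc1 (0.22) and Csf1r (0.10). The cause was not tested. Depth limits the scarce members most, since the lowest count of a member in a library was 8.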
